A study of Mus musculus with 12 samples.

Results

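The genes that build and remodel the glycosylphosphatidylinositol (GPI) anchor were followed in M1-activated bone marrow-derived macrophages (BM-Mɸs) of ErbB4myeKO mice, bred to lack ErbB4 in myeloid cells, and of their littermates. Members were taken by gene symbol: the Pig genes other than Pigr, the Pgap genes, Dpm1 to Dpm3, Gpaa1, Mppe1 and Gpld1. They came to 29 of the 22243 genes in the deposited table, with 39 of its 28808 transcripts. The family was selected on a measured value, the littermate difference of 1 Pigq transcript, so every Pigq difference is given here as a description with no test. Pyurf and Pigyl, and genes listed under older symbols, such as Tmem8 and Tmem246, were not caught by the symbols and are given as a separate list.

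The 12 libraries were single cultures of 12 mice of the C57Bl/6 background, 1 mouse of each genotype from each of 6 litters. The libraries labelled ErbB4myeKO came from mice with floxed Erbb4 and LysMCre, a Cre inserted into the lysozyme M gene (Lyz2) and so driven by its promoter in myeloid cells. Those labelled ErbB4FF came from littermates that carried the same floxed Erbb4 without Cre. Marrow cells of both genotypes were grown in M-CSF-containing medium conditioned by CMG14-12 cells, then given IFN-γ at 100 U/mL for 16 h and LPS at 100 ng/mL for 6 h. Ages of these mice were not on the labels. The comparison asks whether loss of ErbB4, a receptor tyrosine kinase of the EGF receptor family, was accompanied by a change in these transcripts.

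A GPI anchor is a glycolipid that holds a protein on the outer face of the plasma membrane. It is assembled on the endoplasmic reticulum by adding sugars and ethanolamine phosphates stepwise to phosphatidylinositol, is transferred whole to the end of the protein by a transamidase, and is trimmed and given other fatty acids on the way to the cell surface. CD14, the macrophage co-receptor for LPS, is held by such an anchor, and loss of PIGA in human blood stem cells causes paroxysmal nocturnal hemoglobinuria.

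Levels are in TPM, a transcript's share of the RNA molecules in a library, which the authors made with kallisto. TPM scale reads by transcript length, so that levels can be compared between genes. The transcripts of the table held between 59.0% and 74.7% of the TPM of a library, and 10214 to 12985 genes were above 0. Erbb4 itself was at 0.280 to 0.852 TPM in the libraries labelled ErbB4myeKO and at 0.372 to 0.716 TPM in those labelled ErbB4FF, and was lower in the ErbB4myeKO library in 2 of 6 litters. A sum over the whole transcript does not resolve the floxed exons, so these values did not check the labels, and genotypes below are those on the labels. Summed over 7 macrophage markers, the range was 4981 to 9857 TPM in ErbB4myeKO and 5088 to 14835 TPM in ErbB4FF. Most of that sum was Lyz2, the gene that carries the Cre insertion in the ErbB4myeKO mice, and the other 6 markers summed to 1650 to 2355 TPM and 1578 to 2466 TPM. Neutrophil markers summed to 39.6 to 371 TPM and 39.9 to 185 TPM, with Retnlg at 0 throughout, and dendritic cell markers to 8.24 to 29.2 TPM and 2.91 to 22.3 TPM, with Siglech at 0. Lymphocyte, erythroid, and mast cell and basophil markers each summed to at most 3.99 TPM in any library.

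Across the family, no difference between genotypes passed the test. Of 29 genes, 23 had a mean of at least 1 TPM and entered the fit, and 22 were tested once Pigq was set aside. Their log2 differences, ErbB4myeKO minus littermate on log2(TPM + 0.5), were above 0 in 11 genes and below 0 in 11. The median was 0.01, beside -0.0007 over all 8780 genes tested. With limma and Benjamini-Hochberg adjustment over all genes tested, 0 family genes had an adjusted p under 0.05 (smallest 0.603), as had 0% of all genes. At an unadjusted p under 0.05, limma placed 1 of the 22 genes higher in ErbB4myeKO, beside 3.83% of all genes, and 0 lower, beside 4.38%. No family gene moved one way in all 6 litters, beside 2.51% of all genes higher and 2.31% lower. The TPM ranges of the genotypes overlapped for every family gene, and failed to overlap in only 0.0456% of all genes. The summed TPM of the 29 genes had a lowest value of 212, a median of 231 and a highest value of 296 in ErbB4myeKO, and of 207, 244 and 276 in ErbB4FF. In bulk RNA, fewer cells of a type and less RNA per cell cannot be told apart.

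**Figure D1:**
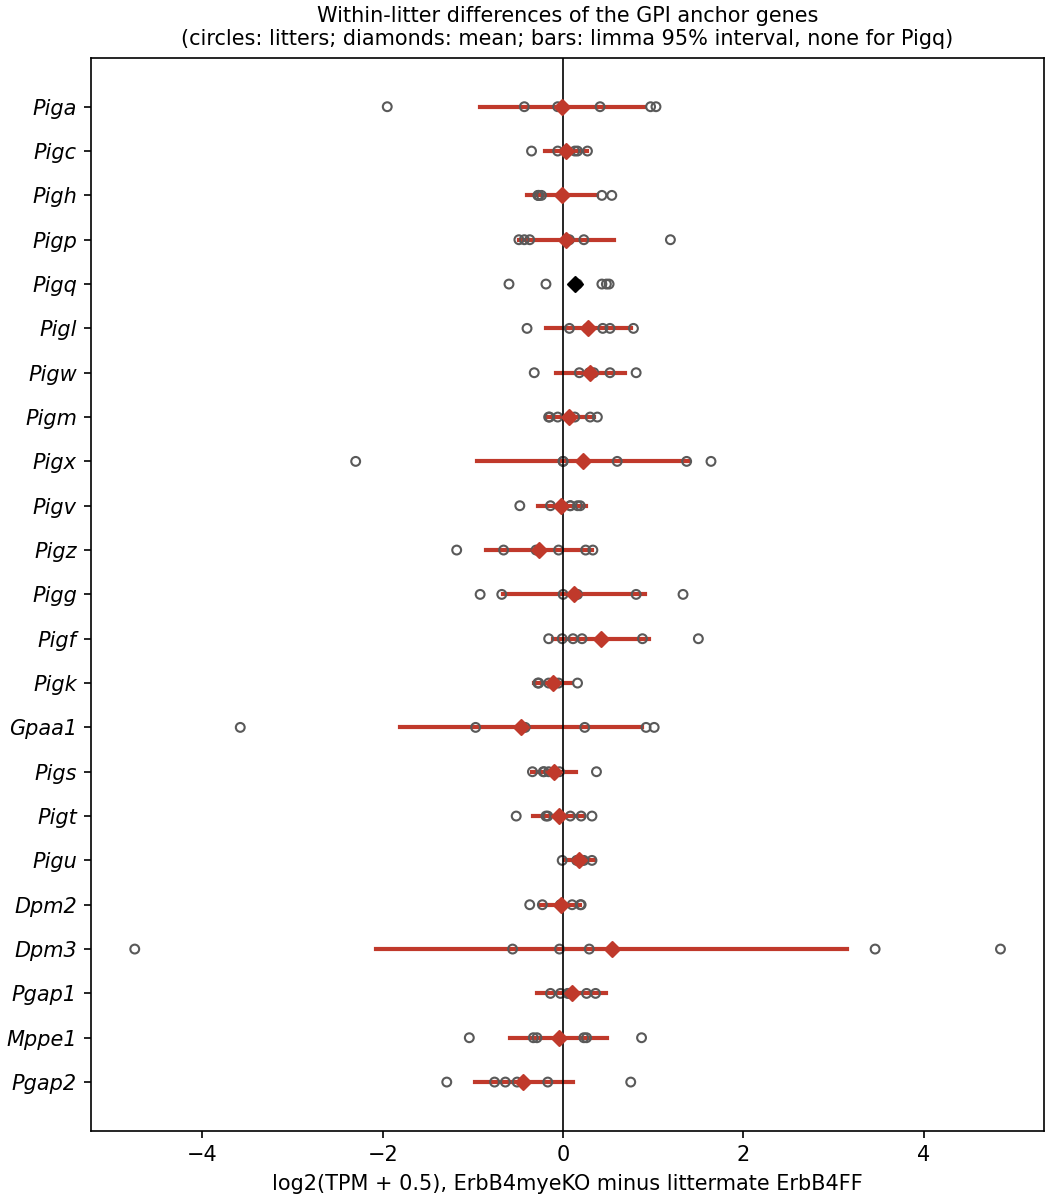
Differences in log2(TPM + 0.5), ErbB4myeKO minus littermate ErbB4FF, for the 23 GPI anchor genes that entered the fit. Circles are the 6 litters, diamonds their mean and bars the limma 95% interval, which is not drawn for Pigq; the interval of Pigu, 0.02 to 0.34, is the one that excludes 0, and the circles of Dpm3 reach from -4.75 to 4.85.

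Pigq (ENSMUSG00000025728) lies at chr17:25926421-25944936 of GRCm38, on the minus strand. It encodes a subunit of the GPI-GlcNAc transferase, the enzyme complex that starts the anchor. The annotation lists 22 Pigq transcripts, 14 of them protein coding, and the table holds 2. Pigq-201 and Pigq-218 have 11 exons each and the same coding sequence of 1746 bases. They differ in the first exon, which is untranslated: 234 bases at chr17:25941815-25942048 in Pigq-201 and 54 bases at chr17:25942770-25942823 in Pigq-218, whose start lies 775 bases farther upstream. At the other end Pigq-201 runs 6 bases longer.

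The joins of the first exons to the shared second exon are shown because the difference between the transcripts rests on them. Capitals mark the last 20 bases of the first exon. The 40 bases in lower case are the second exon, with 10 untranslated bases before the start codon, and are the same in both. The sequences are from the GENCODE M21 transcripts of GRCm38.
Pigq-201: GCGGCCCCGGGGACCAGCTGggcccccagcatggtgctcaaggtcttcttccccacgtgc
Pigq-218: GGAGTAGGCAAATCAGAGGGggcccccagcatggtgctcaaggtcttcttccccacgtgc

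RefSeq gives 1 promoter window for Pigq, and it lies at the start of Pigq-201. It is shown from chr17:25942019-25942239 (GRCm38.p6, minus strand), with the 191 bases before the annotated start in lower case and the first 30 transcribed bases in capitals.
Pigq promoter: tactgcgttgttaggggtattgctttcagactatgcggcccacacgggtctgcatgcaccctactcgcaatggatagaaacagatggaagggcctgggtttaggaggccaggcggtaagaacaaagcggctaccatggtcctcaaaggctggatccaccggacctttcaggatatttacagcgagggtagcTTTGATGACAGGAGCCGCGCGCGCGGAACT
The full window of 300 bases holds 26 CG dinucleotides, which read the same on both strands. The median over 32851 RefSeq windows was 7, 16.9% of windows held at least as many as that of Pigq, and 94.6% held at least 1.

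The values that chose the family were those of Pigq-201. In ErbB4myeKO it was at 8.39, 5.78, 4.79, 4.31, 0.834 and 2.28 TPM in litters 1 to 6. In ErbB4FF it was 1.41, 0, 0, 1.30, 0 and 1.77 TPM, in the same order. The ErbB4myeKO library was the higher one in 6 of 6 litters, a pattern that 2.19% of all 10085 transcripts tested shared, with 2.24% lower in all litters. The ranges met only at the low end, where the ErbB4myeKO library of litter 5 lay below 3 ErbB4FF libraries. The mean log2 difference was 2.07 ± 1.29 (SD, n = 6 litters), with single litters between 0.29 and 3.65. Because 3 ErbB4FF libraries were listed at 0, this value moves with the pseudocount and was 3.20 at 0.1 and 1.60 at 1.

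Pigq-218 was the more abundant transcript in most libraries. In ErbB4myeKO it was at 0.0243, 6.00, 3.88, 6.09, 8.55 and 9.66 TPM in litters 1 to 6. In ErbB4FF it was at 11.6, 8.32, 9.99, 6.30, 8.34 and 6.48 TPM. The ErbB4myeKO library of litter 1 stood far below the rest, and the others overlapped. Its log2 difference averaged -0.95 ± 1.85 (SD, n = 6 litters), and -0.23 without litter 1.

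Summed over both transcripts, Pigq differed less. The sum was 8.41, 11.8, 8.67, 10.4, 9.38 and 11.9 TPM in ErbB4myeKO and 13, 8.32, 9.99, 7.60, 8.34 and 8.25 TPM in ErbB4FF, in litters 1 to 6. The genotypes overlapped, with ErbB4FF of litter 1 the highest library of all. The log2 difference of the sum was 0.13 ± 0.45 (SD, n = 6 litters), above 0 in 4 litters, and was between 0.05 without litter 6 and 0.28 without litter 1.

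**Figure D2:**
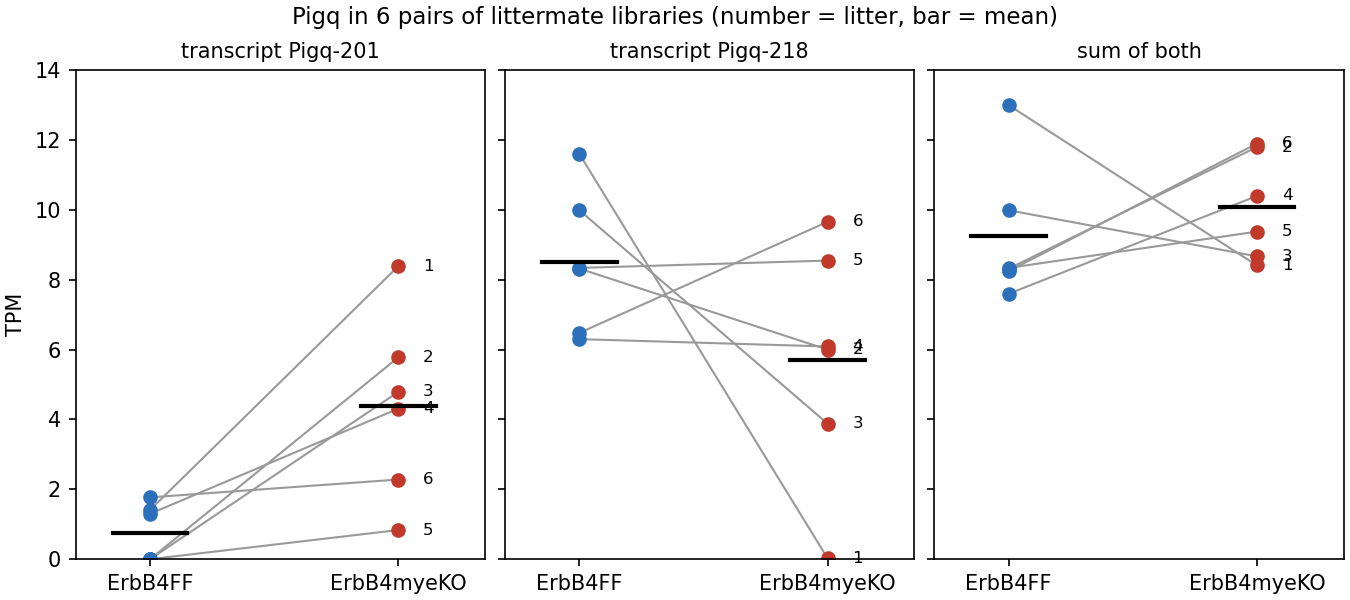
TPM of Pigq-201, of Pigq-218 and of their sum in the 12 libraries, with lines joining littermates, litter numbers at the right and black bars at the means. The means were 4.40 and 0.746 TPM for Pigq-201, 5.70 and 8.51 TPM for Pigq-218, and 10.1 and 9.25 TPM for the sum, in ErbB4myeKO and ErbB4FF.

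The share of Pigq-201 in the sum of both was 99.7%, 49.1%, 55.2%, 41.4%, 8.89% and 19.1% in ErbB4myeKO, litters 1 to 6, and 10.8%, 0%, 0%, 17.1%, 0% and 21.5% in ErbB4FF. It was higher in ErbB4myeKO in 5 of 6 litters and slightly lower in litter 6. Few reads can tell the 2 transcripts apart. Of stretches of 31 bases, the length kallisto matches by default, 239 of Pigq-201 are absent from Pigq-218 and 53 of Pigq-218 from Pigq-201, and 113 and 28 occur in no other annotated Pigq transcript. The authors' mean natural log of normalised counts, 2.78 and 4.49, corresponds to about 16.1 and 88.7 estimated counts a library. A lincRNA gene on the opposite strand, Gm26694, covers the whole gene, and Nhlrc4 shares 2704 bases with it on the same strand. The library kit marks strand, but whether quantification used it is not given in the sources used here.

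The other subunits of the GlcNAc transferase did not pass the test. Piga, its catalytic subunit, was at a mean of 2.14 TPM in ErbB4myeKO and 1.69 TPM in ErbB4FF, with a log2 difference of -0.01 ± 1.11 (SD, n = 6 litters). Its lowest library, ErbB4myeKO of litter 1, was under 0.01 TPM, whereas the other 11 lay between 1.06 and 4.64 TPM. Pigc, Pigh and Pigp, further subunits, had log2 differences of 0.03, -0.01 and 0.03, where Pigp is the sum of its transcripts. Pigc was the most even of them, between 9.26 and 14.2 TPM in all 12 libraries.

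Pigp was also divided between 2 transcripts that differ in the first exon. Pigp-201 and Pigp-202 share their coding sequence and differ in an untranslated first exon of 121 bases at chr16:94370895-94371015 and of 108 bases at chr16:94370605-94370712, minus strand. Capitals again mark the last 20 bases of the first exon, followed by 10 bases of the second.
Pigp-201: CGGGACGCGCAGACGCTTCCattgtctaaa
Pigp-202: CAGCCTCTGCTTTTCCTCAGattgtctaaa
Pigp-201 was listed at 0 in 10 libraries and was at 6.60 and 5.72 TPM in ErbB4FF of litters 4 and 6. Pigp-202 was under 0.01 and at 1.53 TPM in those 2 libraries, and between 2.35 and 14 TPM in the other 10. The sum was thus 6.60 and 7.24 TPM there, inside the range of the rest. In the other 4 litters Pigp-202 made up 100% of Pigp in both littermates. Its share differed by 29.8 ± 46.7 points (SD, n = 6 litters; exact permutation test, two-sided, p = 0.5). With only 2 litters that differed, this test could not reach a p under 0.05. Of the stretches of 31 bases in Pigp-201 and Pigp-202, 35% and 35.7% also occur in transcripts of other genes.

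The transcript shares of Piga, Pigw and Pigc did not pass the test, and those of Pigb, below the filter, were not tested. In all 8 family genes with more than 1 transcript in the table, those transcripts carry an identical coding sequence. Piga-201 made up 71.5% to 75.7% of Piga in 9 libraries and at most 0.01% in ErbB4myeKO of litters 2 and 6 and ErbB4FF of litter 6. One of the 9 was ErbB4myeKO of litter 1, where the sum itself was under 0.01 TPM. Its share differed by -12.5 ± 29.5 points (SD, n = 6 litters; exact permutation test, two-sided, p = 0.188), and by -0.465 points without litter 2. For Pigw-201 the difference was 4.15 ± 26.9 points (exact permutation test, two-sided, p = 0.719, n = 6 litters), or -3.08 points without litter 1. For Pigc-201 it was -1.35 ± 2.62 points (exact permutation test, two-sided, p = 0.344, n = 6 litters), and between -1.91 and -0.568 with 1 litter left out. The smallest p these 3 tests allow is 0.0312.

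**Figure D3:**
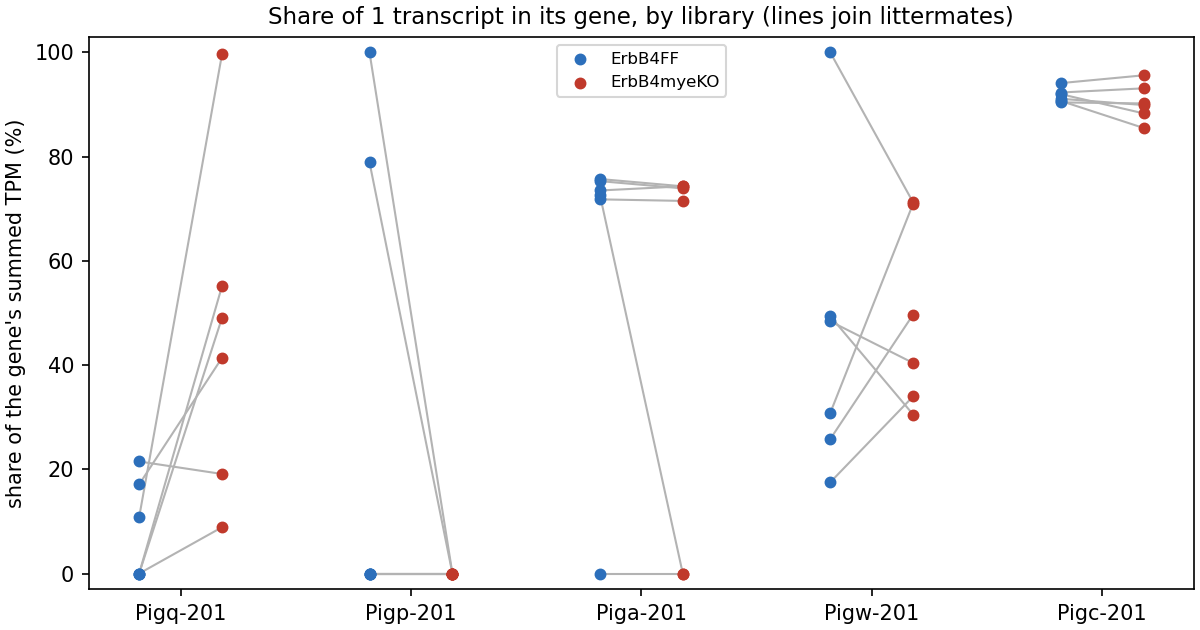
Share of 1 transcript in the summed TPM of its gene, in percent, with lines joining littermates. Pigq-201 rises along 5 of 6 lines, Pigp-201 is above 0 in 2 ErbB4FF libraries, Piga-201 drops to the floor in 3 libraries of both genotypes, and Pigc-201 stays between 85.5% and 95.6%.

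The next enzymes were low and did not pass the test. Pigl, the deacetylase of the second step, was at 1.48 and 1.11 TPM in ErbB4myeKO and ErbB4FF, with a log2 difference of 0.28 (95% interval -0.19 to 0.75). Pigw, which acylates the inositol, was at 3.11 and 2.59 TPM, with 0.30 (-0.08 to 0.69). Each was higher in ErbB4myeKO in 5 of 6 litters, and the limma p-values before adjustment were 0.210 and 0.107.

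Among the mannosyltransferases, Pigm and Pigv, which add the first and the second mannose, were at 5.89 and 7.40 TPM over all libraries, and their log2 differences were 0.07 and -0.02. Pigz, which adds a side-branch mannose, was at 1.19 TPM with a difference of -0.27 (95% interval -0.85 to 0.32). Pigx, the partner that stabilises Pigm, was one of the 2 lowest genes in the fit. The table holds 1 of its 5 annotated coding transcripts, and 100% of the stretches of 31 bases in that transcript occur in other Pigx transcripts. Pigx was at 4.07, 0, 0, 2.76, 0 and 2.20 TPM in ErbB4myeKO of litters 1 to 6. In ErbB4FF it was at 0.967, 0, 1.96, 0.761, 0 and 1.28 TPM. In litters 2 and 5 both littermates were listed at 0, and the genotypes overlapped throughout. Pigb, for the third mannose, had a mean of 0.485 TPM and stayed below the filter.

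Of the ethanolamine phosphate transferases, Pign and Pigo, which act on the first and the third mannose, had means of 0.0144 and 0.597 TPM and were not tested. The table holds 1 of 5 annotated coding transcripts of Pign and 1 of 3 of Pigo, so other transcripts of these genes were not measured here. Pigg, which acts on the second and has 1 of 3 annotated coding transcripts in the table, passed the filter narrowly at 1.01 TPM. It was at 3.90, 0.217, 0.591, 1.80, 0 and 0.723 TPM in ErbB4myeKO and at 1.25, 0.646, 1.57, 0.814, 0 and 0.597 TPM in ErbB4FF. Neither genotype was consistently the higher. Pigf, the partner of Pigo and Pigg, was higher, at 6.96 and 5.39 TPM in ErbB4myeKO and ErbB4FF. Its log2 difference of 0.42 ± 0.64 (SD, n = 6 litters) was largest in litters 2 and 3, at 0.88 and 1.50, while the other 4 lay between -0.16 and 0.21 (limma, unadjusted p = 0.102, adjusted p = 0.625).

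The transamidase, which joins the finished anchor to the protein, held the family gene with the smallest p. Pigu (ENSMUSG00000038383, chr2:155278243-155357430, minus strand), one of its subunits, was at 27.1, 26.4, 22.6, 23.4, 29.7 and 26.1 TPM in ErbB4myeKO of litters 1 to 6. In ErbB4FF it was at 23, 21, 22.8, 20.5, 25.6 and 23.5 TPM. The ErbB4myeKO library was the higher one in 5 litters and level with its littermate in litter 3, and the ranges overlapped. The difference was 1.13-fold (95% interval 1.02 to 1.27), or 0.18 ± 0.11 in log2 (SD, n = 6 litters). In limma its p was 0.0306 before and 0.603 after adjustment, and an exact permutation test over littermates, two-sided, gave p = 0.0625. Without the litter term the limma p was 0.122.

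The spread of Pigu over litters was among the smallest of the family. The catalytic subunit Pigk and the subunits Pigs and Pigt were also even, with means of 9.13, 19.3 and 18.8 TPM and log2 differences of -0.11, -0.10 and -0.05. Their 95% intervals were -0.32 to 0.10, -0.34 to 0.14 and -0.33 to 0.23. Gpaa1, the remaining subunit, was at 3.41 TPM with a difference of -0.47 ± 1.70 (SD, n = 6 litters). Its ErbB4myeKO library of litter 1 was under 0.01 TPM, beside 5.46 TPM in the littermate. The same library was the lowest for Piga and for Pigq-218, but the highest for Pigq-201, Pigf, Pigg, Pigx and Pigo. Without litter 1 the Gpaa1 difference was 0.16.

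Dolichol phosphate mannose synthase makes the mannose donor for the anchor and for glycans of other kinds. Dpm2, a subunit that also associates with the GlcNAc transferase, was the most abundant family gene. It was at 52.2, 44.7, 45.3, 51.9, 82.0 and 51.7 TPM in ErbB4myeKO and at 53.4, 57.9, 39.4, 48.2, 71.8 and 60.7 TPM in ErbB4FF of litters 1 to 6. Litter 5 was the highest in both genotypes, and the log2 difference was -0.02 (95% interval -0.24 to 0.19; limma, adjusted p = 0.946). Dpm3, which tethers the catalytic subunit, spread most: it was listed at 0 in ErbB4myeKO of litter 4, under 0.01 TPM in ErbB4FF of litter 2 and at 1.33 TPM in ErbB4FF of litter 3, but between 8.82 and 26.9 TPM in the other 9 libraries. Its log2 difference of 0.54 ± 3.37 (SD, n = 6 litters) had a 95% interval from -2.07 to 3.15. Dpm1, the catalytic subunit, was at 0.187 TPM, but the table holds 1 of its 2 annotated coding transcripts, and Gm20716 covers 21317 bases of the gene on the same strand.

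**Figure D4:**
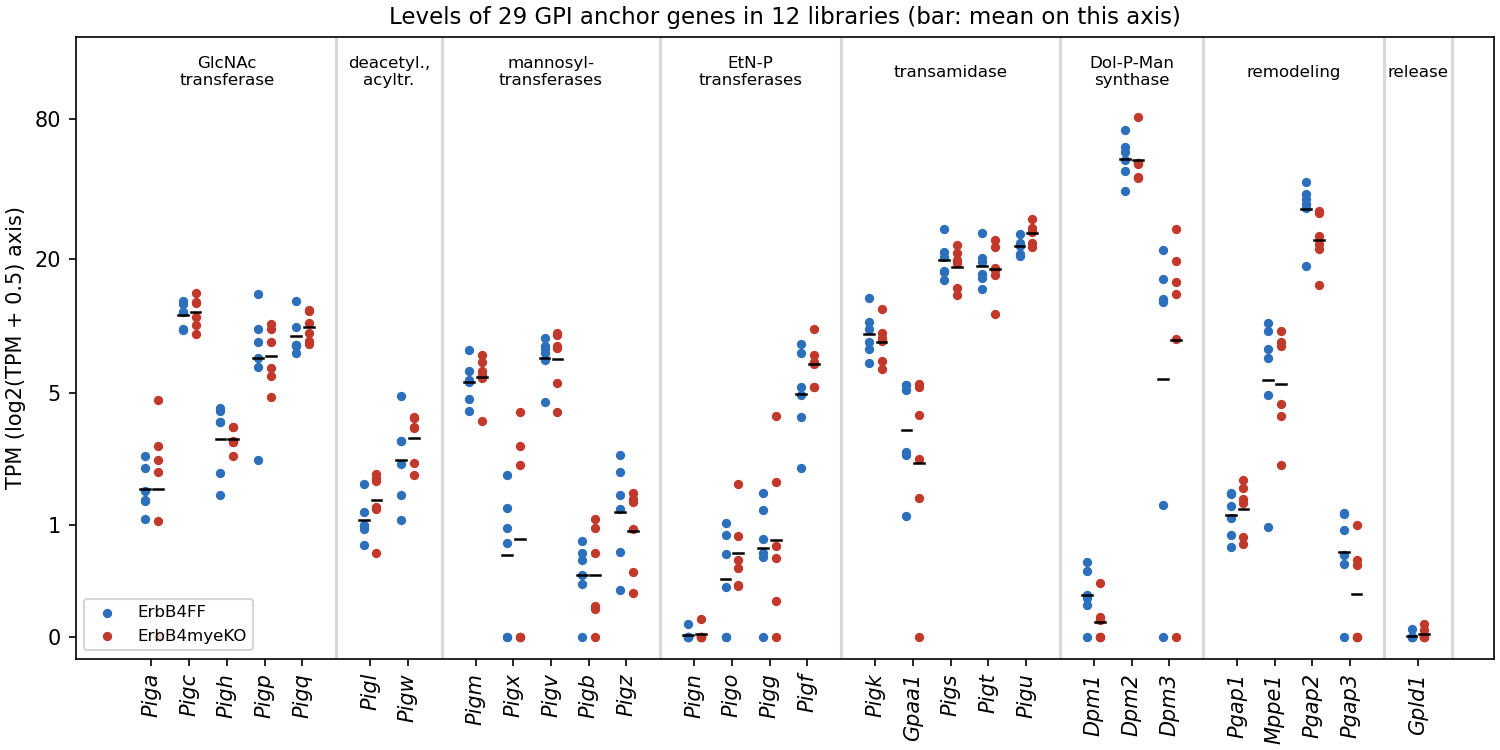
TPM of the 29 genes in the 12 libraries, grouped by role, on an axis spaced as log2(TPM + 0.5), with black bars at the means on that axis and values under 0.01 TPM drawn at 0. Dpm2 is the highest gene, at 39.4 to 82.0 TPM, and the colours of the genotypes overlap in every column.

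Of the remodeling enzymes, Pgap2 was the second most abundant family gene. Its product takes part in giving the anchor a saturated fatty acid in the Golgi. In ErbB4myeKO it was at 31.6, 25.2, 23.2, 15.3, 32.4 and 22 TPM in litters 1 to 6. In ErbB4FF it was at 18.6, 42.9, 33.3, 38.1, 36.4 and 34.7 TPM. The ErbB4myeKO library was the lower one in every litter except litter 1, in which the ErbB4FF library was the lowest of its genotype. The log2 difference was -0.44 ± 0.69 (SD, n = 6 litters; 95% interval -0.98 to 0.11; limma, unadjusted p = 0.103, adjusted p = 0.625). Leaving out 1 litter in turn gave -0.67 to -0.27, with -0.27 without litter 4 and -0.67 without litter 1, where the limma p was 0.00434 before and 0.60 after adjustment. Of the stretches of 31 bases in its main transcript, 27.8% also occur in transcripts of other genes.

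Pgap1, which removes the acyl chain from the inositol, and Mppe1, which removes an ethanolamine phosphate, were at 1.25 and 6.50 TPM, with log2 differences of 0.10 and -0.05. Pgap3, which takes off the unsaturated fatty acid, was at 0.35 and 0.739 TPM in ErbB4myeKO and ErbB4FF, below the filter, and was listed at 0 in 3 ErbB4myeKO libraries and 1 ErbB4FF library. Gpld1, the phospholipase that releases GPI-anchored proteins, was at 0.0122 TPM. With Dpm1, Pigb, Pign and Pigo these were the 6 genes not tested.

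Transcript by transcript the result was similar. Of 23 family transcripts tested, Pigq left out, Pigu-201 had an unadjusted limma p under 0.05, in the higher direction, beside 3.12% of all transcripts, and 0 were lower, beside 3.60%. After adjustment 0 passed (smallest 0.685), as did 0% of all transcripts. Some transcripts were near 0 in part of the libraries. Counting Pigq, 6 of the 25 transcripts that passed the filter, or 24%, had a median of at least 1 TPM and yet a library under 0.1 TPM, beside 18.2% of all transcripts tested, and without Pigq 4 of 23, or 17.4%. The 6 were Pigq-201, Pigq-218, Pigp-202, Pigw-202, the Gpaa1 transcript and the main transcript of Dpm3.

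The spread between litters was described against the counts behind each transcript. The deposited table gives a mean log count for 30 family transcripts, of which 24 passed the filter and are described here. The 9 with at least 100 counts a library had an SD of the log2 difference between 0.11 and 0.69, whereas the 11 under 30 counts had SDs between 0.41 and 3.33. Pigu-201, at 224 counts, had the smallest SD, and the main Pgap2 transcript, at 334 counts, the largest of the 9. Pigq-218, at 88.7 counts, had an SD of 1.85. Across these 24 transcripts, which share libraries and depth, Spearman's rho between counts and SD was -0.63, as a description. A library at 0 lowers the mean log count and widens the SD at once, so part of this relation is built in.

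**Figure D5:**
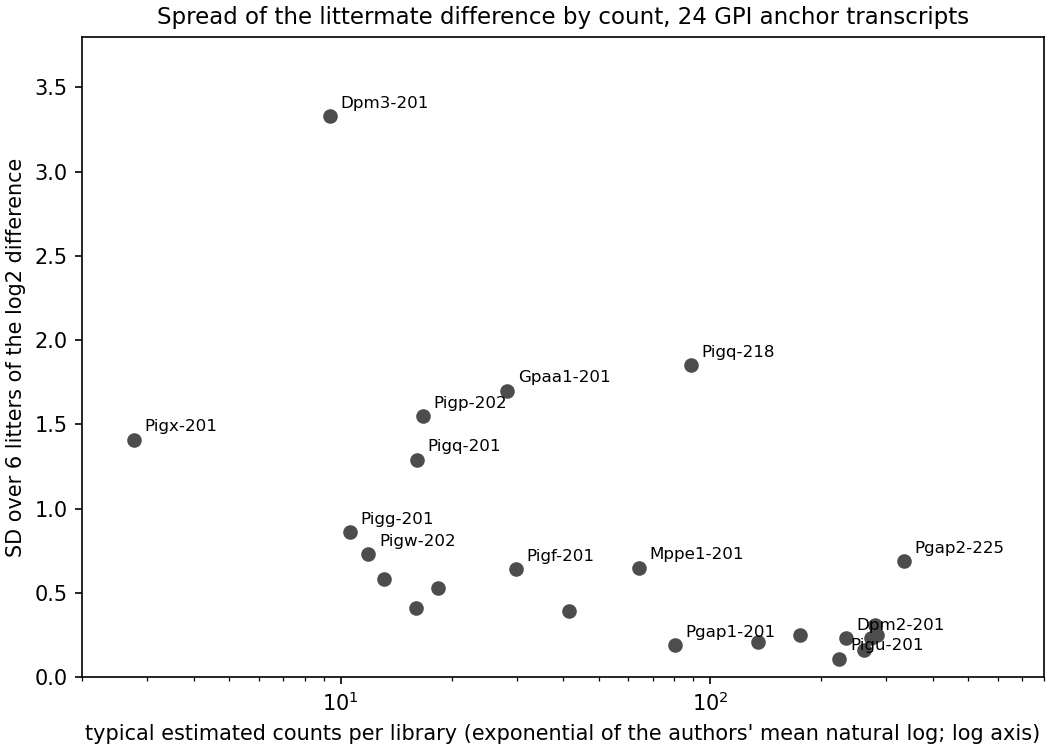
SD over 6 litters of the log2 littermate difference against the typical estimated counts per library, for 24 family transcripts, on a log count axis. The main Dpm3 transcript, at 9.38 counts, has the largest SD of 3.33, and that of Pgap2 stands above the other transcripts with at least 100 counts at 0.69.

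Of 13 further genes of the pathway, among them Pyurf, Pigyl and the p24 and Sec24 genes for carrying anchored proteins out of the endoplasmic reticulum, 12 were tested and 0 had an unadjusted limma p under 0.05 in either direction, beside 3.83% of all genes higher and 4.38% lower. The most abundant were Tmed10, Tmed9 and Clptm1l, with means of 145, 126 and 74.8 TPM and log2 differences of -0.00, -0.01 and 0.12. The median difference of the list was 0.03, and single genes spread widely over litters, as Tmed2 and Pigyl did with SDs of 0.86 and 0.80. Of 12 genes for dolichol and the N-glycan donor, all were tested, 0 had an unadjusted p under 0.05, and the median was 0.06. In this list 9 genes were above 0 and 3 below. Over all genes tested, 49.8% were above 0 and the median was -0.0007. Nus1, Alg5 and Srd5a3 were the most abundant, at 30.2, 19.8 and 12.8 TPM.

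Among 40 genes for GPI-anchored proteins, 24 gene identifiers were tested, with a median log2 difference of -0.06. In limma 1 was higher and 1 lower at an unadjusted p under 0.05, beside 3.83% and 4.38% of all genes, and 0 passed adjustment. Mmp25, a membrane-anchored metalloproteinase, was at 26.8 ± 15.4 TPM in ErbB4myeKO and 40 ± 22.7 TPM in ErbB4FF (SD, n = 6), lower in 5 of 6 litters (limma, adjusted p = 0.603). Vnn3, a pantetheinase, was at 5.41 ± 2.60 and 4.11 ± 2.43 TPM (SD, n = 6), higher in 6 of 6 litters (limma, adjusted p = 0.603). Over the alternatives the unadjusted limma p reached 0.24 for Mmp25 and 0.284 for Vnn3. The 3 most abundant were Cd14, Cd52 and Ly6a, with means of 2795, 2771 and 1930 TPM and log2 differences of 0.16, -0.15 and -0.05. Of 7 macrophage markers tested, 3 were above 0 and 4 below. Fcgr1 was lower in 6 of 6 litters, by -0.86 in log2 (limma, unadjusted p = 0.00987, adjusted p = 0.603), Mertk was higher in 6 of 6, by 0.14 (limma, unadjusted p = 0.126), and Adgre1 and Csf1r differed by 0.01 and 0.05. Lyz2, Itgam and Cd68 differed by -0.59, -0.20 and -0.12, with Lyz2 and Itgam lower in 5 of 6 litters. Of 4 neutrophil markers tested, Camp, higher in 6 of 6 litters, and S100a8 were above 0, at 0.45 and 0.30, and Ngp and S100a9 below, at -0.36 and -0.24, with an unadjusted limma p of 0.0369 for Camp. Xcr1, the 1 dendritic cell marker tested, differed by 0.63 (limma, unadjusted p = 0.028, adjusted p = 0.603), and Zbtb46, below the filter, by -0.18. The part of these markers in the values above was not tested.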

How the data were processed

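RNA of 12 M1-activated BM-Mɸ cultures was sequenced by the study as 75 bp single-end reads from stranded polyA libraries. The submitters' processing notes name CASAVA, kallisto, sleuth and mm10, with no versions. The authors deposited TPM per principal transcript and library, and a mean natural log of normalised counts over all libraries, used here only as the depth behind a transcript. The deposited table also holds the authors' own comparison (p, q and fold values), which was not used. Of 29213 lines, 405 repeated a transcript and were dropped, and TPM were summed per gene.

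Differences were tested with limma 3.58.1 (R 4.3.3, trend on) on log2(TPM + 0.5), with litter as a block, over features with a mean of at least 1 TPM and Benjamini-Hochberg adjustment over all of them. TPM are not counts. The study states 1 nominal read depth for all libraries, and read totals of single libraries were not used here. Litter numbers pair the libraries, as the labels give 1 litter per pair. Deviations of littermates from their genotype means correlated at 0.273 to 0.774. Values for libraries of different litters are not given here, so these correlations do not test the pairing. The Y-linked score was high in both libraries of 4 litters and low in both of 2, so the block also covers sex. Single values were tested by exact permutation within litters (Python 3.11.15, scipy 1.17.1). The limma script was tested on simulated data with independent normal errors, which do not copy the single libraries near 0 described above. Gene positions are from GENCODE M21 (GRCm38), in which all 29 genes were found.

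All members are accounted for by role. Values in every library are given for Pigq, for family genes or transcripts with an unadjusted p under 0.05, for genes moving one way in all litters, and for the 2 highest and 2 lowest tested genes. In the other lists, genes with an unadjusted p under 0.05 and the 3 highest are named. The members and lists were chosen with earlier results of these data known. Alternatives were the fit without the block, a Y-linked covariate, limma without trend, pseudocounts of 0.1 and 1, a filter at 5 TPM or none, scaling to median ratios, the highest transcript alone, and leaving out each litter.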

Additional observations from a re-analysis of the deposited data

Results flagged for a closer look

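In 6 of 46 groups (23 genes in each of 2 genotypes), 1 library stood apart from the other 5 by Dixon's criterion on log2(TPM + 0.5), which is 13% of the groups. The same criterion marked 12.9% of the 17560 groups of all genes tested, and chance marks about 1 group in 20. The gap to the nearest library, as a share of the group's range, was 0.745 for Dpm2 in ErbB4myeKO, where litter 5 was at 82.0 TPM and the others at 44.7 to 52.2 TPM. It was 0.731 for Dpm3 in ErbB4myeKO, where litter 4 was listed at 0 and the others were at 8.82 to 26.9 TPM. For Pgap2 in ErbB4FF it was 0.694, with litter 1 at 18.6 TPM and the others at 33.3 to 42.9 TPM. For Pigv in ErbB4FF it was 0.668, with litter 5 at 4.51 TPM and the others at 7.12 to 8.88 TPM. For Pigm in ErbB4myeKO it was 0.655, with litter 5 at 3.67 TPM and the others at 5.87 to 7.45 TPM. For Mppe1 in ErbB4FF it was 0.648, with litter 3 at 0.983 TPM and the others at 4.90 to 10.4 TPM.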

How the results depend on the processing

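No family gene or transcript passed an adjusted p of 0.05 under any of the 15 alternatives for genes and 14 for transcripts; the smallest adjusted p-values were 0.506 and 0.596. The family median stayed between -0.02 and 0.04. Without the replicate block, the counts at an unadjusted p under 0.05 fell from 1 to 0 genes and from 1 to 0 transcripts; limma without trend also left 0 transcripts. Leaving out 1 litter gave 0 to 2 genes and 0 to 1 transcripts. There were 0 genes without litter 2, 4 or 6, Pgap2 alone without litter 1, and Pigs alone without litter 5. Without litter 3 there were Pigu and Pigw. Shares over all genes or transcripts under these alternatives are not given here, so these counts are a description only. The fit with the Y-linked covariate kept the replicate block, which already covers sex. The covariate thus held only differences of the score within litters and added no adjustment for sex. With it the gene under 0.05 was Pigf (unadjusted p = 0.0189 in limma), and Pigu was at 0.0579. The log2 difference of summed Pigq turned from 0.13 to -0.95 when its highest transcript stood alone, and Pigp moved from 0.03 to 0.99, by construction.

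Of 22 genes, 10 kept their direction in every alternative that tested them, Pigu among them. Among the other 12, the Y-linked covariate turned Piga, Pigh and Pigv to 0.04, 0.03 and 0.04, and a pseudocount of 1 turned Piga to 0.06. Over the leave-one-litter-out fits the log2 differences ranged from -0.07 to 0.05 for Dpm2, -0.32 to 1.60 for Dpm3, -0.76 to 0.16 for Gpaa1, -0.23 to 0.15 for Mppe1, -0.21 to 0.38 for Piga, -0.02 to 0.11 for Pigc, -0.13 to 0.32 for Pigg, -0.12 to 0.04 for Pigh, -0.20 to 0.14 for Pigp, -0.12 to 0.05 for Pigt, -0.06 to 0.07 for Pigv and -0.07 to 0.72 for Pigx. For the 10 genes that kept their direction they ranged from 0.04 to 0.14 for Pgap1, -0.67 to -0.27 for Pgap2, 0.21 to 0.54 for Pigf, -0.17 to -0.08 for Pigk, 0.18 to 0.41 for Pigl, 0.01 to 0.12 for Pigm, -0.20 to -0.05 for Pigs, 0.15 to 0.22 for Pigu, 0.20 to 0.43 for Pigw and -0.39 to -0.09 for Pigz. Shares without 1 litter, added after seeing the data, ranged from -0.351 to 2.06 points for Pigc-205, -1.17 to 1.45 for Pigc-202, -3.08 to 10.7 for Pigw-201, -10.7 to 3.08 for Pigw-202 and -15.2 to -0.465 for Piga-201. Pseudocounts of 0.1 and 1 moved Pigq-201 from 2.07 to 3.20 and 1.60. The cause was not tested. Most of the sequence of Pigq-201 and Pigp-201 is shared with other transcripts of their genes, which limits what isoform values can show here.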
